A study of Homo sapiens with 30 samples.

Results

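The array of ZR-75-30 cells treated with BMP7 for 6 h was described against the 5 other time points of the same cell line. It was selected on its own readout, as the array with the most 2-fold changes in the series, so every value of this array below is a description with no test. It is 1 of 30 arrays, and 6 of these belong to ZR-75-30, an established luminal breast cancer cell line. Each two-colour array set RNA of vehicle-treated cells (Cy3) against RNA of cells given recombinant human BMP7 (Cy5), after 30 min or 1, 3, 6, 12 or 24 h. The remaining 24 arrays were made in the same way from HCC1954, MDA-MB-231, MDA-MB-361 and T-47D cells. No time point had a second array, cells of triplicate cultures were pooled into 1 sample per channel, and dyes were never swapped, so any constant dye bias remains in the ratios and no value has a replicate error. In pooled cultures, fewer cells of a type and less RNA per cell cannot be told apart.

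BMP7 is a secreted ligand of the TGF-β superfamily. It binds type I and type II serine-threonine kinase receptors, which phosphorylate SMAD proteins that enter the nucleus together with SMAD4 and regulate transcription there. The inhibitor of differentiation genes ID1, ID2 and ID3 are classic immediate targets of this pathway in epithelial cells, and inhibitory SMADs such as SMAD6 and SMAD7 limit it.

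Values are log2 ratios of BMP7 over vehicle, with the array median at 0, read for each gene from the probe that was brightest in the vehicle channel of the line. A gene was called raised or lowered when its ratio changed at least 2-fold and both channels were well above background. Of 17830 genes with a symbol, 13198 were measured in this sense at 6 h. Of these, 413 were raised, which is 3.13%, and 441 were lowered, which is 3.34%. On the other arrays of the line, 10 to 75 genes were raised and 1 to 64 lowered. Just inside the limit lay SPIN4 with a log2 ratio of 1.00055 and HCFC1 with -1.00004, and just outside it OPN1LW with 0.99909 and GNAS with -0.99991.

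**Figure D1:**
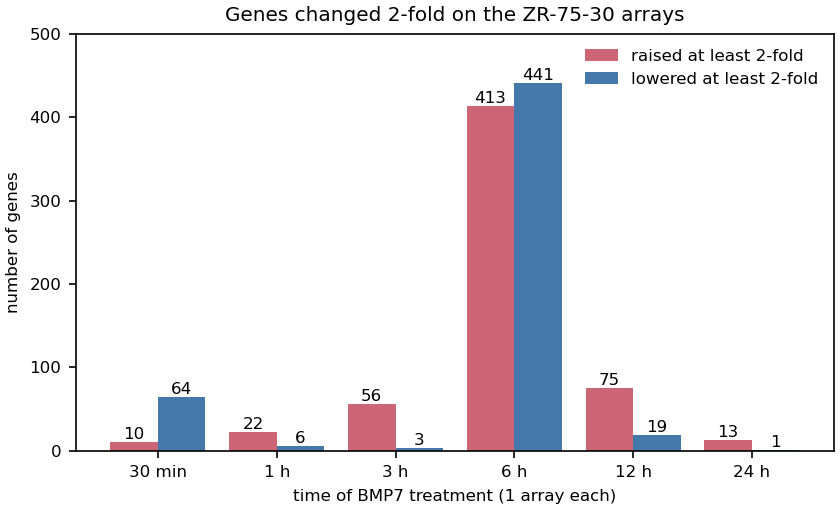
Bars give the number of genes (y axis) whose BMP7/vehicle ratio was raised or lowered at least 2-fold on each of the 6 ZR-75-30 arrays (x axis, time of treatment, 1 array each). At 6 h, 413 genes were raised and 441 lowered, against at most 75 and 64 at any other time point.

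The 6 h array stood apart in its signals as well. The median background-subtracted signal of the probes, before dye normalization, was 152.0 in the vehicle and 64.8 in the BMP7 channel. This is a BMP7/vehicle quotient of 0.426. Across the other 29 arrays of the series this quotient lay between 0.709 and 2.69, and in the other ZR-75-30 arrays between 1.04 and 1.59. The log2 ratios used here come after dye normalization and had an array median of 0 as deposited. The SD of the log2 ratios of measured probes was 0.600 at 6 h and 0.174 to 0.420 on the other 29 arrays. The share of probes well above background in both channels, 63.5%, was inside the range of the other arrays of the line, which was 57.8% to 65.4%. The part of the dim BMP7 channel in the changes was not tested. The 6 h array shared a slide and a scan batch with the 30 min array of the line and with MDA-MB-231 at 30 min and 6 h. On those MDA-MB-231 arrays, 2 and 0 genes were raised and 4 and 0 lowered. The ZR-75-30 arrays of 1, 3, 12 and 24 h lay on other slides of the earlier scan batch.

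Both channels of the array were more like those of ZR-75-30 than like any channel of another line. The log2 signal was compared over 16075 probes well above background on all 30 arrays. With the other ZR-75-30 channels, the vehicle channel at 6 h had r = 0.959 to 0.983 and the BMP7 channel 0.925 to 0.986. The high ends came from the 30 min array of the same slide. With the arrays of the earlier scan batch, r was 0.959 to 0.969 for the vehicle and 0.925 to 0.950 for the BMP7 channel. Those arrays correlated among themselves at 0.986 to 0.997. The highest r with any channel of another line was 0.901 for the vehicle and 0.918 for the BMP7 channel. All 15 luminal markers of a fixed list, among them the estrogen receptor gene ESR1, the pioneer factor gene FOXA1 and the keratin genes KRT8, KRT18 and KRT19, were well above background in both channels at 6 h and none changed 2-fold. The log2 of their summed signal was 20.15 in the vehicle and 20.11 in the BMP7 channel at 6 h, and 19.5 to 20.2 in the other 10 channels of the line. Of 18 basal and mesenchymal markers, 12 were well above background in each of the 6 h channels. Their log2 summed signal was 14.94 in the vehicle and 14.81 in the BMP7 channel, against 14.41 to 14.95 elsewhere in the line. Of 10 markers of stroma and blood, 4 were well above background in the vehicle and 3 in the BMP7 channel, with a log2 summed signal of 8.13 and 8.08 against 7.76 to 8.09 elsewhere in the line. These r values share the probes and the hybridization platform and are given without a p.

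The genes with the highest ratios at 6 h formed a common pattern. Among genes measured on all 6 arrays, the 15 highest were ACBD4, PSORS1C2, SYNGR4, CACNA1E, SLC26A1, NRSN2, GPR20, GH2, ZNF575, GIPR, CMIP, GLIS2, UTF1, CAMK2N2 and GGT1, with log2 ratios from 2.15 to 2.59. They include a voltage-gated calcium channel subunit (CACNA1E), a sulfate transporter (SLC26A1), the placental growth hormone (GH2), a transcription factor of embryonic stem cells (UTF1) and an inhibitor of calmodulin-dependent kinase II (CAMK2N2).

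Values given in time order below run over 30 min, 1, 3, 6, 12 and 24 h, so the fourth is that of the 6 h array. ACBD4, which encodes an acyl-CoA binding protein, had the highest ratio among them. The chemokine receptor gene CXCR3 (2.66) and HSPB9 (2.62) were higher at 6 h but were not measured on every array of the line. Its log2 ratio was -0.66, -0.03, 0.32, 2.59, 0.41 and 0.15 in time order. In the vehicle channel its scaled log2 signal was 11.59, 6.88, 6.11, 10.76, 6.67 and 6.45 in the same order, and in the BMP7 channel 10.95, 6.85, 6.44, 13.35, 7.07 and 6.61. Thus both channels were high at 30 min and at 6 h and low on the other 4 arrays, and at 6 h the BMP7 channel exceeded the vehicle. The probe lies on chromosome 17 (hg18, 40569398 to 40569457).

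CACNA1E showed the same order of arrays. Its scaled log2 signal in the vehicle channel was 12.50, 8.21, 7.10, 11.53, 7.68 and 7.45 in time order. In the BMP7 channel it was 11.77, 8.45, 7.66, 14.00, 8.57 and 7.78, so its log2 ratio was -0.75 at 30 min and 2.46 at 6 h. SLC26A1 had the widest swing between these arrays among the 15, from -1.35 at 30 min to 2.46 at 6 h. Of the 15 highest genes, 14 had a ratio below 0 at 30 min.

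The exception was GIPR, the receptor of the gut hormone GIP. Its log2 ratio was 1.85, 1.42, 1.14, 2.24, 1.16 and 0.87 in time order. It was therefore above 0 on all 6 arrays, and the level of its vehicle channel at 6 h was 0.10 above the median of the other arrays while its BMP7 channel was 1.07 above. A second measured GIPR probe had a log2 ratio of 1.84 at 6 h, with departures of 1.18 in the vehicle and 3.04 in the BMP7 channel.

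The 15 lowest genes were KBTBD6, GEN1, CNTRL, MBD5, EP300, CTAGE3P, PABPC4, CHD9, ZMAT3, PIK3C2A, ZNF426, STS, CAB39, ZNF676 and TBL1X, with log2 ratios from -2.52 to -1.84. Several encode regulators of chromatin or transcription, namely the histone acetyltransferase EP300, the chromodomain helicase CHD9, the methyl-CpG binding domain protein MBD5, the corepressor subunit TBL1X and the zinc finger proteins ZNF426 and ZNF676. The share of such regulators among all measured genes was not counted, so no common function is read from them. PABPC4 is a cytoplasmic poly(A) binding protein and GEN1 a nuclease that resolves DNA junctions.

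KBTBD6, an adaptor of a cullin ubiquitin ligase, was the lowest. Its log2 ratio was -0.65, -0.27, -0.40, -2.52, -0.75 and -0.34 in time order. Its scaled log2 signal in the BMP7 channel was 6.34, 7.80, 8.05, 5.35, 7.48 and 7.89 in that order, and in the vehicle channel 6.97, 8.07, 8.45, 7.86, 8.24 and 8.23. The BMP7 channel at 6 h was thus the lowest of the 12 channels, whereas the vehicle channel at 6 h was inside the range of the other arrays. With normexp background correction and loess the ratio of KBTBD6 was -1.40 and that of EP300 -1.22. In that setting CNTRL (-0.99), STS (-0.93) and ZNF426 (-0.84) of the lowest genes no longer reached 2-fold. The other genes named among the lowest stayed beyond 2-fold, from -1.86 for CAB39 to -1.05 for ZMAT3. The size of these lowered ratios thus depended on the processing. The KBTBD6 probe lies on chromosome 13 (hg18, 40602179 to 40602238).

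For EP300 the log2 ratio was 0.02, -0.35, -0.17, -2.11, -0.52 and -0.12 in time order. Its BMP7 channel at 6 h was 1.34 below the median of the other arrays on the log2 scale and its vehicle channel 0.64 above it. For ZMAT3, a p53-induced zinc finger gene, the vehicle channel was 1.03 above and the BMP7 channel 0.66 below, and its ratio was -2.04. Against the 30 min array alone, ZMAT3 was 0.85 higher in the vehicle and its BMP7 channel fell by 1.04, so the channel with the larger departure depended on the reference.

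**Figure D2:**
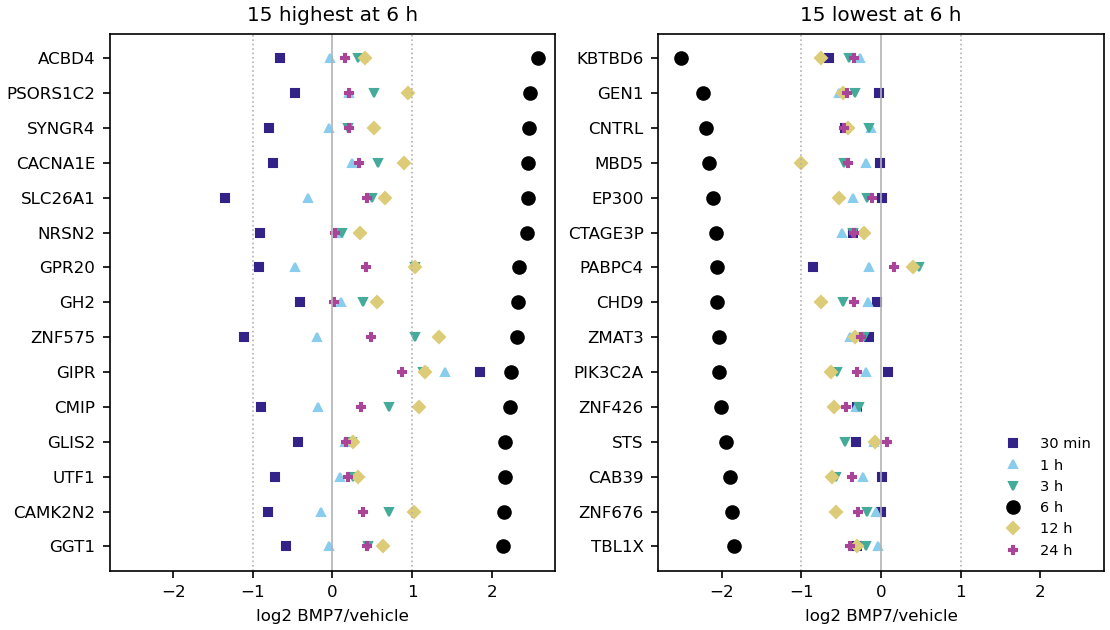
Each row is a gene and each symbol its log2 BMP7/vehicle ratio (x axis) on 1 of the 6 ZR-75-30 arrays, for the 15 highest and 15 lowest genes at 6 h; dotted lines mark 2-fold. The black 6 h points lie at 2.15 to 2.59 and at -2.52 to -1.84, apart from the other arrays, which lie on both sides of 0 for most of the raised genes.

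Other probes of the same genes seldom showed the change. Of the 15 highest genes, 7 had at least 1 other probe that was measured at 6 h, and in 1 of them, GIPR, another probe was raised 2-fold as well. The second probe of ACBD4 had a log2 ratio of -0.25, that of CMIP -0.70 and that of ZNF575 -0.12. Of the 15 lowest genes, 4 had other measured probes and none of these was lowered 2-fold. The second EP300 probe had -0.24 and the second GEN1 probe -0.29. Over all raised genes, 130 of 413 had another measured probe. In 7 of these 130 all other probes were raised 2-fold, and in 61 at least 1 other probe had a ratio below 0. For lowered genes, 160 of 441 had another measured probe, in 28 all of them were lowered 2-fold, and in 55 at least 1 had a ratio above 0. Probes of a gene can match different transcripts, and their part in these differences was not tested.

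Most changed genes were outside the range of the other time points, but so were many genes below 2-fold. Of 12017 genes measured on all 6 arrays, 339 were raised and 430 lowered at 6 h. The 6 h ratio lay above that of each other array for 332 of the 339 and below it for 425 of the 430. Among all 12017 genes, 30.7% lay above and 30.7% below all 5 other arrays. The raised genes had a median log2 ratio of 1.53 at 6 h, against -0.47, 0.11, 0.31, 0.41 and 0.23 on the other arrays from 30 min to 24 h. The lowered genes had a median of -1.19 at 6 h and of -0.31 to -0.08 on the other arrays. At another time point of the line, 63 of the raised and 12 of the lowered genes also changed 2-fold in the same direction. On any single one of those arrays, 0.07% to 0.59% of all measured genes were raised and 0.008% to 0.48% lowered. These shares are per array, whereas the counts of 63 and 12 cover any of the 5 arrays. The matching share over all genes is not given here, so no excess is read from them. Of all 413 genes raised at 6 h, 39 were also raised at 3 h and 61 at 12 h, but only 2 on each other array of the line.

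To find which channel carried these ratios, each channel of the 6 arrays was scaled to a common median, and the 6 h level of a gene was set against the median of the same channel at the 5 other time points. In the vehicle channel 499 genes (4.15% of 12017) departed at least 2-fold upward and 222 (1.85%) downward. In the BMP7 channel 672 genes (5.59%) departed upward and 580 (4.83%) downward. The SD of the departures over all genes was 0.563 in the vehicle and 0.713 in the BMP7 channel. At 30 min, by the same rule, the SD was 0.664 and 0.557, and on the other 4 arrays between 0.243 and 0.320. Both channels of the 6 h array therefore departed, as did both of the 30 min array on the same slide.

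For the raised genes, both channels lay high at 6 h. Their median departure was 1.12 on the log2 scale in the vehicle and 2.27 in the BMP7 channel. The BMP7 channel departed upward 2-fold in 241 of the 339 genes and the vehicle in 181. For the lowered genes the median departure was 0.05 in the vehicle and -0.98 in the BMP7 channel, with 206 of 430 genes 2-fold down in the BMP7 channel and 3 in the vehicle. The vehicle made the larger departure in 144 of all 769 changed genes, or 18.7%. In 472 of the 769, both channels departed in the same direction. Where both rise in a raised gene, or both fall in a lowered one, the call itself largely sets BMP7 as the larger. The share counts genes and not replicates, and it does not tell which channel changed.

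This share depended on the array used as reference. Against the 30 min array alone, which shared the slide, the vehicle made the larger departure in 391 of 769 genes, or 50.8%. In that comparison the raised genes had a median of -0.80 in the vehicle and 1.26 in the BMP7 channel, and the lowered genes of 0.70 and -0.46. The channels thus moved in opposite directions in 660 of the 769 genes. Against the 4 arrays of the earlier scan batch the share was 17.8%. Scan batch and time point cannot be told apart for this comparison, since the later batch held only the 30 min and 6 h arrays of the line.

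**Figure D3:**
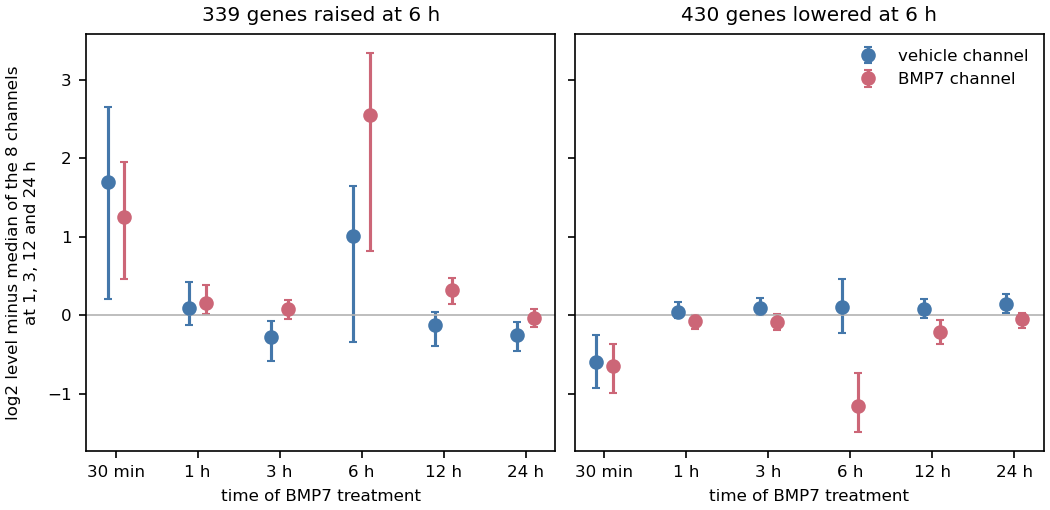
Points are the median and bars the quartiles, over the genes raised (left) or lowered (right) at 6 h, of the scaled log2 level in the vehicle and BMP7 channels minus the median of the 8 channels at 1, 3, 12 and 24 h (y axis), by time of treatment (x axis). The raised genes lie high in both channels at 30 min (1.69 and 1.25) and at 6 h (1.01 and 2.56), and the lowered genes lie lowest in the BMP7 channel at 6 h (-1.15).

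The genes with the strongest departures in a channel were mostly genes whose channels moved together. The highest 5 in the vehicle channel were ACBD4 (4.09), FRMD4A (3.93), CACNA1E (3.85), CMIP (3.69) and FOXE1 (3.597), and their BMP7 departures were higher still, 4.81 to 6.50. FOXE1 is a forkhead transcription factor of thyroid development. The lowest 5 in the vehicle channel were TCF15 (-3.03), DPYSL3 (-2.79), ERC1 (-2.24), PGAP4 (-2.05) and EXOSC6 (-2.05), with BMP7 departures of -3.01 to -1.24. Other measured probes did not share several of these vehicle departures, with -0.15 to -0.14 for ERC1, -0.76 to 0.45 for EXOSC6 and -0.24 to 0.24 for FRMD4A. The other measured probes of ACBD4 and CMIP had -0.22 and 0.73.

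TCF15, a basic helix-loop-helix factor of the paraxial mesoderm, and DPYSL3, a dihydropyrimidinase-like protein of neurons, were low in both channels alike, with 6 h log2 ratios of 0.63 and 0.60 that were like those of the other arrays. TCF15 had ratios of 0.52 to 0.62 on the other 5 arrays and DPYSL3 of 0.42 to 0.78. At 6 h the level of TCF15 differed from that at 30 min by 0.04 in the vehicle and 0.13 in the BMP7 channel, so its low level was shared by both arrays of the slide. Of the lowest 5 in the BMP7 channel, ZNF676 (-2.98), ZNF479 (-2.91) and ZNF208 (-2.76) were zinc finger genes. Their vehicle channel was also low, with departures of -1.77 to -1.40. At 30 min they were low as well, with scaled log2 signals of 7.30 to 7.79 in the vehicle and 7.64 to 7.81 in the BMP7 channel. Against 30 min alone, their vehicle channel at 6 h was 0.88 to 0.97 higher and their BMP7 channel 0.69 to 0.96 lower.

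A set of 210 probes that the study took from its hierarchical clusters, as those present in both the BMP4 and the BMP7 cluster, gathered the strongest raised probes. That set was chosen on these same arrays, so its direction at 6 h is not independent evidence. At 6 h, 202 of its 206 measured probes were raised 2-fold and none lowered, with a median log2 ratio of 1.75. On the other arrays the median was -0.89, -0.21, 0.85, 1.01 and 0.34 from 30 min to 24 h. Relative to the earlier scan batch, the vehicle level of the set was 2.78 higher at 30 min and 1.61 higher at 6 h, and the BMP7 level 1.92 and 3.36 higher. The set supplied the probe of 105 of the 413 raised genes and of 9 of the 15 highest, against 0.803% of all measured genes. Its members thus lay far above the earlier arrays in both channels of both later arrays, with the vehicle ahead at 30 min and BMP7 ahead at 6 h.

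Of 20 BMP target genes on a list, 19 were measured at 6 h, 3 were raised (ID2, HEY1, MSX1) and 1 was lowered (TGIF1). The median log2 ratio of the targets was 0.18 against -0.00067 over all measured genes. On the other arrays the target median was -0.04, 0.04, 0.40, 0.35 and 0.31 from 30 min to 24 h. The 6 h median was thus below those at 3, 12 and 24 h. With normexp and median scaling, which moved the median of all genes to -0.45, the median of the targets was -0.37, and ID2, HEY1 and MSX1 had 0.66, 0.65 and 0.95. The share raised stands beside a background of 3.13%.

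ID2, an inhibitor of basic helix-loop-helix factors, had log2 ratios of 0.13, 0.41, 1.24, 1.14, 0.99 and 1.24 in time order. The 6 h value of this probe was inside the range of the 3, 12 and 24 h values. A second ID2 probe had 0.61 at 6 h, below its 1.01, 0.74 and 0.71 on the 3, 12 and 24 h arrays.

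ID1 had 0.29, 0.31, 0.41, 0.77, 0.55 and 0.74 from 30 min to 24 h, and ID3 had -0.06, 0.32, 0.63, 0.58, 0.63 and 0.64. Both were above 0 at 6 h without reaching 2-fold, and the 6 h value of ID3 was close to its values at 3, 12 and 24 h. ID4 had 0.17, and ATOH8, a helix-loop-helix factor, 0.51 at 6 h against 0.67 to 0.82 at 3, 12 and 24 h.

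HEY1, a Notch and BMP target, had 0.64, 0.49, 0.37, 1.45, 0.43 and 0.47 from 30 min to 24 h, so its 6 h value was the highest of the 6. The homeobox gene MSX1 had -0.68, -0.05, 0.63, 1.85, 0.90 and 0.48, the time course seen in the raised genes at large, and its second probe had -0.24 at 6 h. The corepressor gene TGIF1 had -1.11 at 6 h and -0.34 to 0.01 at the other times. The inhibitory SMADs were not changed 2-fold, with log2 ratios of 0.24 for SMAD6 and -0.15 for SMAD7 at 6 h, against 0.31 to 0.69 and 0.28 to 0.45 at 3, 12 and 24 h. DLX3 had 0.06 at 6 h although it had 1.12 at 3 h and 1.11 at 12 h.

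**Figure D4:**
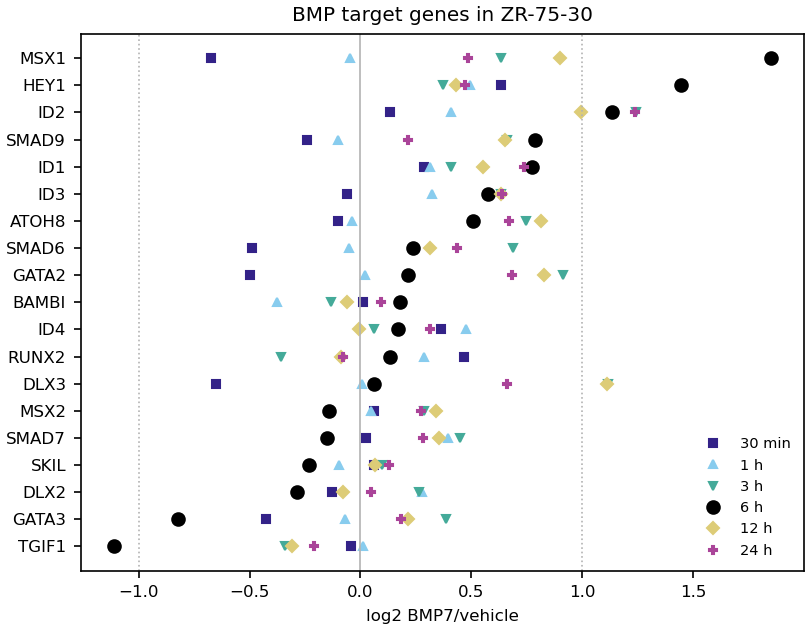
Each row is 1 of 19 measured BMP target genes and each symbol its log2 BMP7/vehicle ratio (x axis) on 1 of the 6 ZR-75-30 arrays; dotted lines mark 2-fold. ID1, ID2 and ID3 have 6 h ratios of 0.77, 1.14 and 0.58 near those of 24 h, whereas MSX1 (1.85), HEY1 (1.45) and TGIF1 (-1.11) lie apart from their other points.

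Among the receptors and signal transducers, 9 of 9 genes were measured, 0 were raised and 1 was lowered, the activin type II receptor gene ACVR2A with -1.03 (-0.61 with normexp and loess). Their median log2 ratio was -0.64 at 6 h and -0.17 to 0.05 on the other arrays, and 7 of 9 had a ratio below 0. The type I receptor genes ACVR1 and BMPR1A had -0.90 and -0.64, and SMAD4 and SMAD5 had -0.76 and -0.69. The vehicle channel of the list departed from the other arrays by a median of -0.09 and the BMP7 channel by -0.33. Against the 30 min array alone these medians were 0.46 and -0.07. At 30 min both channels of the list were already low relative to the earlier scan batch, with medians of -0.45 and -0.40. The channel with the larger departure thus depended on the reference. Of 9 genes for secreted BMP antagonists and related proteins, 4 were measured and none changed 2-fold. Their ratios ran from -0.09 for FSTL1 to 0.59 for TWSG1, and their median of 0.30 became -0.33 with normexp and median scaling.

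Over all 23 lists, 267 genes were measured, of which 9 were raised and 9 lowered, 3.37% in each direction. These shares were near those over all measured genes, 3.13% and 3.34%. Of 16 measured immediate early genes, EGR1 was raised (1.12) and MYC lowered (-1.13). A second MYC probe had 0.59. Of 18 proliferation genes, TOP2A (-1.14) and RRM2 (-1.13) were lowered and none raised, with a median of -0.18. A second RRM2 probe had -0.81. The DNA topoisomerase TOP2A and the ribonucleotide reductase subunit RRM2 are S-phase and mitotic genes, whereas CDK1 (-0.02), CCNB1 (-0.12) and PCNA (0.14) of the same list were near 0.

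Of 11 measured interferon-stimulated genes, 5 had a ratio above 0 and 6 below, with a median of -0.03. IFIT1 (0.59) and MX1 (0.71) were among those above 0 and did not reach 2-fold. Of 12 clock genes, DBP was raised (1.08) and CLOCK lowered (-1.11). Second probes had -0.37 for DBP and -0.61 for CLOCK, and with normexp and loess neither gene reached 2-fold (0.79 and -0.84). Of 10 p53 targets, the proapoptotic gene BBC3 was raised (1.496) and ZMAT3 lowered (-2.04), and BBC3 also had 1.35 at 3 h and 1.29 at 12 h on a probe that belongs to the 210 above. The other BBC3 probes had 0.20 and 0.22 at 6 h. KRT14 was the sole raised gene of the basal and mesenchymal markers (1.87), and its second probe had -0.31. None of the heat shock genes was raised, and HSP90AA1 was lowered (-1.0004). Its other probes ran from -1.29 to 0.19, and with normexp and loess its ratio was -0.90. ANKRD37 was the sole change among 15 measured hypoxia and glycolysis genes (1.01, and 0.81 with normexp and loess). None of the measured genes for ribosomal proteins, oxidative phosphorylation, sterol synthesis, histones, the unfolded protein response, NF-κB targets, estrogen response or housekeeping changed 2-fold. MALAT1, a nuclear long noncoding RNA, was raised (1.15) with other probes of 0.25 to 1.15.

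One gene family stood out in both channels at once. Metallothioneins are small cysteine-rich proteins that bind zinc and copper, and their genes are induced by metals through metal response elements and the factor MTF1. All 9 of the list were measured, and their BMP7/vehicle ratios at 6 h ran from -0.35 to 0.75 with a median of -0.14. Yet the level of each was at least 2-fold above the median of the other time points in the vehicle and in the BMP7 channel, with median departures of 1.68 and 1.53. Over all genes these medians were -0.04 and -0.04.

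MT1X had scaled log2 signals in the vehicle channel of 13.28, 12.31, 13.00, 14.95, 13.31 and 13.14 in time order. In the BMP7 channel it had 13.37, 12.23, 13.04, 14.61, 13.32 and 12.83 in that order. Both 6 h channels were thus above all 10 others, by 1.24 for the lower of them. MT1M had the largest departures, 2.86 in the vehicle and 3.34 in the BMP7 channel.

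In all 9 genes both 6 h channels exceeded all 10 other channels of the line. The same held for 779 of the 12017 genes measured on all 6 arrays. Without a fold limit, this rule gave 177 to 1029 genes on the other 5 arrays, the most at 30 min. Over the 12017 genes, in a comparison added after the values were seen, both 6 h channels were at least 2-fold above all 10 others for 6 genes, which were MT1E, MT1G, MT1B, MT1L, MT1X and MT1H, and MT1L was no member of the list. On the other 5 arrays the same rule gave 0 to 3 genes. Unlike the raised genes, the metallothioneins were not high at 30 min, with median levels of -0.0020 in the vehicle and 0.15 in the BMP7 channel relative to the earlier scan batch. Probes of these genes can cross-hybridize, since the copies are nearly identical, so the members are not separate observations.

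**Figure D5:**
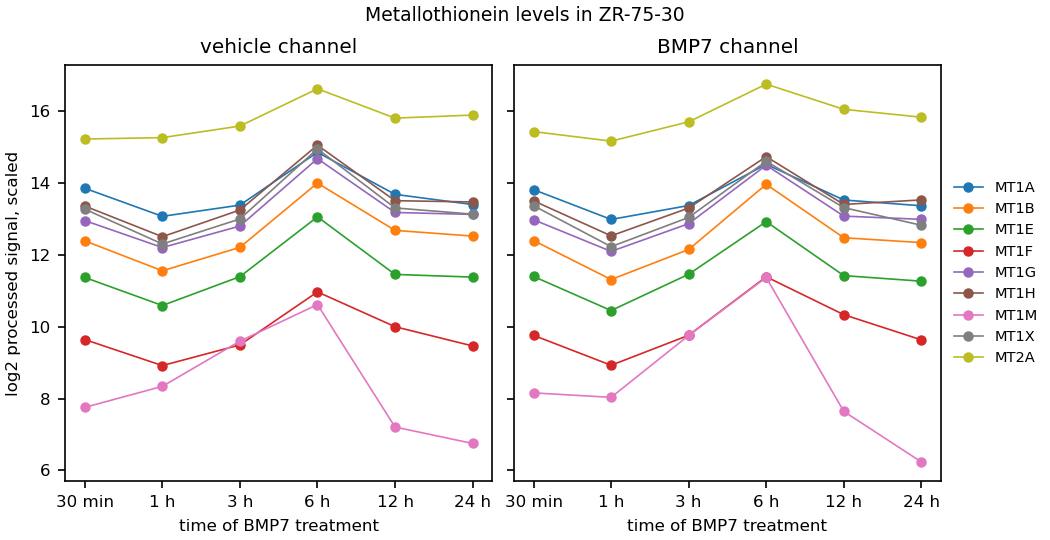
Lines give the scaled log2 processed signal (y axis) of the 9 metallothionein genes of the list on the 6 ZR-75-30 arrays (x axis, time of treatment), for the vehicle channel (left) and the BMP7 channel (right); levels of different genes come from different probes and are not compared. Each gene has its highest level at 6 h in both panels.

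The promoters are shown because metals act on this family through an element in them. RefSeq promoter windows (GRCh38.p14) were at hand for 4 of the 9, and the 250 bases before each transcription start are shown 5′ to 3′, with matches to the core of the metal response element, TGCGCNC or TGCACNC on either strand, in capitals.
MT1B, chr16:56651636-56651885, plus strand: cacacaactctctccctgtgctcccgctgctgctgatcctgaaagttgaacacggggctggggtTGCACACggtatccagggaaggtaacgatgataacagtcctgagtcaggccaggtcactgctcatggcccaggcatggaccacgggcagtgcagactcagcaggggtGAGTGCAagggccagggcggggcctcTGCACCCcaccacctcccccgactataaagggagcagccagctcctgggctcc
MT1H, chr16:56669564-56669813, plus strand: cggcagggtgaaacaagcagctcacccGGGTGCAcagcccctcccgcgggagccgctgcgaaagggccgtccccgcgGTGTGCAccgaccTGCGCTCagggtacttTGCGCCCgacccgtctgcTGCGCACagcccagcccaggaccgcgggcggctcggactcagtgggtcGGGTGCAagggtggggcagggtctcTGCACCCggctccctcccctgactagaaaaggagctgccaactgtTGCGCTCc
MT1X, chr16:56682220-56682469, plus strand: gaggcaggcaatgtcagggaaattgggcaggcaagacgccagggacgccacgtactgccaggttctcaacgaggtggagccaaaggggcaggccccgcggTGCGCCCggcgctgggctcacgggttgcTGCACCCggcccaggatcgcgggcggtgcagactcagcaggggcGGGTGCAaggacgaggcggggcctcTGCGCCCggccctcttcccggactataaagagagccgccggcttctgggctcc
MT2A, chr16:56608334-56608583, plus strand: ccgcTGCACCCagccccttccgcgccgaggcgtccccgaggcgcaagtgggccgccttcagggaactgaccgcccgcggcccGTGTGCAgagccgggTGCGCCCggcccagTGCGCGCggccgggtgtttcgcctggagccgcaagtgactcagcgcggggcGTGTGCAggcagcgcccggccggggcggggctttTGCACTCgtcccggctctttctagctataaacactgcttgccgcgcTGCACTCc
The windows held 3 matches in MT1B, 8 in MT1H, 4 in MT1X and 7 in MT2A. At least 3 matches stood in 1.56% of 27305 RefSeq windows of the same length and in 2.26% of those of the genes measured at 6 h. A match is a run of letters and does not show that a factor was bound.

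Features that the call did not use were set beside it after the values were seen, as a description. Genes named ZNF with a number, most of which encode C2H2 zinc finger repressors, made up 66 of 441 lowered genes (14.97%) and 10 of 413 raised genes (2.42%), against 395 of 13198 measured (2.99%). Seen from the family, 16.7% of the 395 were lowered, against 3.34% of all genes. Their median log2 ratio was -0.29 at 6 h and -0.13 to 0.00 on the other arrays. The median departure of the family was -0.19 in the vehicle and -0.33 in the BMP7 channel. Against the 30 min array alone it was 0.21 and -0.13. At 30 min the family was already low relative to the earlier scan batch, by -0.44 in the vehicle and -0.31 in the BMP7 channel.

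The span of the gene in RefSeq had a median of 57.6 kb in lowered, 14.3 kb in raised and 27.5 kb in all measured genes. The GC content of the promoter window had medians of 65% in lowered and 66% in raised genes against 65% in all, with a window at hand for 80.05%, 74.1% and 80.1% of them, so the raised genes fall short of 80% and their value is void. The median scaled log2 vehicle signal at 6 h was 9.26 in lowered, 9.43 in raised and 9.83 in all measured genes.

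On the other 29 arrays the pattern of the 6 h ratios came back with either sign. The log2 ratios at 6 h correlated with those of single other arrays, over probes well above background on both, at r = -0.516 to 0.599, with a median of 0.163. The highest value was that of MDA-MB-231 at 24 h and the lowest that of T-47D at 1 h. On the latter array the raised genes of ZR-75-30 at 6 h had a median log2 ratio of -0.86 and the lowered genes of 0.46. There 171 of 374 raised genes (45.7%) were lowered 2-fold, against 1.51% of all genes measured on that array. On the MDA-MB-231 array at 24 h the medians were 0.20 and -0.63, and 54 of 417 lowered genes (12.9%) were lowered 2-fold there as well, against 0.835% of all genes measured on that array. Within ZR-75-30 the r was lowest with the 30 min array, 0.12, and highest with the 12 and 24 h arrays, 0.41. The methods give the dyes as the same on all arrays, and the direction of the ratios was kept. Each point of these correlations is a probe, and probes share dye and sequence effects across arrays.

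At 6 h, 76 genes were well above background in both channels but in neither channel of any other ZR-75-30 array. Of these, 2 were raised (2.63%, against 3.13% of all measured genes) and none lowered. By the same rule, each other array of the line held 30 to 135 such genes, with the most, 135, at 30 min. The 5 brightest were CD101, GLYCAM1, GSTA2, TMEM273 and LINC01565, with processed signals of 92.5 to 102.0 in the vehicle and 99.6 to 124.4 in the BMP7 channel. Their ratios were -0.03 to 0.41, and that both channels held them was set by the choice. GLYCAM1, a mucin-like adhesion protein, was well above background in both channels on 1 of the 30 arrays, and GSTA2, a glutathione transferase, on 13.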

How the data were processed

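Arrays were Agilent two-colour whole human genome arrays. Per the file headers, Feature Extraction 9.5.1.1 detrended the background, set surrogates for signals not above it and applied linear and lowess dye normalization, with annotation of build hg18. The authors deposited for each spot a log10 ratio of BMP7 over vehicle, the processed intensity of each channel and a p-value of the log ratio, and also a series matrix of log2 ratios centred within arrays.

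Ratios were expressed on the log2 scale after removal of control spots and outlier-flagged spots, of which there were 124 at 6 h. Replicate spots were averaged per probe, and the array median was then set to 0. Of 41000 probes, 27745 were given a current symbol by symbol, accession or synonym in the RefSeq gene table (GRCh38.p14), and the probe brightest in the vehicle channel stood for a gene. No spot was saturated at 6 h. Channel levels are log2 processed signals shifted to a common median over 22724 probes well above background in both channels on all 6 arrays of the line. The precision is limited by the number of arrays.

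The members and the gene lists were chosen with earlier results of these data known. The genes named were the 15 highest and 15 lowest ratios, the 5 highest and 5 lowest departures of each channel, up to 5 genes measured at 6 h alone, and members of the lists. Zinc finger genes, gene span, the rule on both channels and the 210 probes of the study were added after values were seen. Calculations used Python 3.11.15 with numpy 2.4.6, pandas 2.3.3 and matplotlib 3.10.9, and limma 3.58.1 in R 4.3.3 for normexp (offset 50), loess and Aquantile. The scripts were tested on simulated data. Alternatives tried were other normalizations, filters, thresholds, references and probe rules, as listed in the closing section. The result of 1 gene of the lists is not reported here.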

Additional observations from a re-analysis of the deposited data

How the results depend on the processing

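With 1 array no replicate check exists, and the limits are the signal over background and the normalization. The counts of raised and lowered genes, 413 and 441, became 162 and 1875 with normexp and median scaling, where the median of all genes shifted to -0.45, so that 7.95% of the calls were raised in place of 48.4%. They became 290 and 249 with normexp and loess, 633 and 725 without a filter on dim probes and 166 and 50 at 3-fold. With loess, 278 of the raised and 235 of the lowered genes remained called, and no call turned its direction in any of the 3 other sources of values. The other 7 settings (series matrix, no median shift, 1 channel above background, p-value under 0.01, outlier spots kept, saturated spots left out, mean over probes) stayed within 1.5 times. Of these, the settings on the median shift and on saturated spots could not change the counts. The array median was already 0 and no spot was saturated at 6 h. Genes departing in the vehicle channel, 721, numbered 474 against the mean of the other time points, 406 against the 30 min array and 177 at 3-fold. In the BMP7 channel, 1252 became 813 with Aquantile, 461 against the 30 min array and 339 at 3-fold. Leaving out each other time point gave 632 to 844 and 1144 to 1418. The share led by the vehicle, 18.7%, was 50.8% against the 30 min array and 2.54% at 3-fold, and 17.8 to 19.1% when a time point was left out. The median metallothionein departures stayed within 1.61 to 1.82 and 1.42 to 1.69 over all settings. Relative to the shift of -0.45, the BMP target median of -0.37 under median scaling was still above that of all genes. The cause of these differences was not tested. No paired analysis was possible because no time point has a second sample.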
